A study of Mus musculus with 3 samples.

Results

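Molecular chaperones and protein folding enzymes were compared between the ureteric tree and all other cells of the embryonic mouse kidney. The genes were those whose array symbol begins with Hspa, Hspb, Hspd, Hspe, Hsph or Hsp and a digit, Dnaj or Fkbp, or names a subunit of the CCT chaperonin, a cyclophilin from Ppia to Ppih, a protein disulfide isomerase of the Pdia series, calnexin or calreticulin. Of 103 such genes on the array, 57 had a value on all 3 arrays and were tested among 3915 genes, 5 had a value on some arrays, and 41 had none. The untested 41 included both lectin chaperones, Canx and Calr, and Hsph1, Hspa1l, Hspa2, Pdia4 and Ppif. Kidneys came from HoxB7-GFP transgenic mice at 15.5 days post coitum with both sexes pooled, and all compared cells carried the transgene, in which the Hoxb7 promoter drives green fluorescent protein in the ureteric epithelium. Cells sorted as GFP+ and as GFP- were hybridised against each other on each array, with dyes not stated and no dye swap labelled. A sample is thus a log2 ratio, taken as GFP+ over GFP-. That direction is likely rather than stated, since it rests on the order of the channels and the wording of the titles. The GFP- fraction is a mixture of every other kidney cell type, so fewer cells of a type and less RNA per cell cannot be told apart.

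Chaperones bind unfolded or partly folded proteins and hold, fold or hand them on. The 70 kDa proteins bind short stretches of exposed chain in a cycle driven by ATP, J-domain proteins (the 40 kDa class, Dnaj) bring clients to them and trigger ATP hydrolysis, and nucleotide exchange factors reset the cycle. The 90 kDa proteins act later on client proteins that are nearly folded, chaperonins of the 60 kDa and CCT kinds enclose a client in a ring, and small heat shock proteins hold unfolded proteins without ATP. FKBPs and cyclophilins turn the peptide bond before proline, and protein disulfide isomerases (PDI) form and rearrange disulfide bonds in the endoplasmic reticulum (ER). Heat shock factor drives many cytosolic and mitochondrial members through heat shock elements, and the unfolded protein response drives ER members through ER stress response elements.

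The fractions differed in cell type markers in the assumed direction. The marker lists were chosen with earlier results of these data known, so they do not test that direction independently. Of 15 ureteric epithelium markers 5 were tested and 5 were higher by limma, and their mean log2 ratios ran from 1.97 to 2.36. Of the macrophage markers 5 of 6 tested, of the erythroid markers 2 of 3 and of the stromal markers 3 of 4 were lower, with list medians of -1.91, -2.15 and -1.35, and 0 of these 13 had a positive mean. Arrays 2 and 3 resembled each other over the tested genes (Pearson's r = 0.883 across genes) and array 1 stood apart from both (r = 0.08 with array 2 and 0.277 with array 3). Genes are not independent replicates, and these r values describe the arrays.

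The chaperone genes as a whole differed between the fractions about as much as all tested genes did, with means slightly larger in size. The median size of the 57 means was 0.24, against 0.20 for all tested genes. Their median SD over arrays was 0.33, against 0.31. By limma with Benjamini-Hochberg adjustment over all 3915 genes, 1 of the 57 was higher in GFP+ cells, Hspb1, where 1.38% of all tested genes were, and 0 were lower, where 1.4% were (in either direction, 2.78% of all tested genes passed). At an unadjusted p below 0.05, 5 were higher (8.45% of all tested genes) and 4 lower (6.41%). The same shares of all tested genes apply to the class and list counts at this level below. An ordinary one-sample statistic, which shares no variance between genes, passed 0 in either direction. The median of the 57 mean log2 ratios was 0.04, against 0.03 for all tested genes, 31 of the 57 means were positive (54.9% of all tested genes), and 49 of the 57 means (86.0%) were smaller than 0.5 in size, against 87.1% of all tested genes. Only Hspb1 and Hspa12b had means above 1 in size, and the highest and lowest means of the 57 were 1.05 and -1.07.

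**Figure D1:**
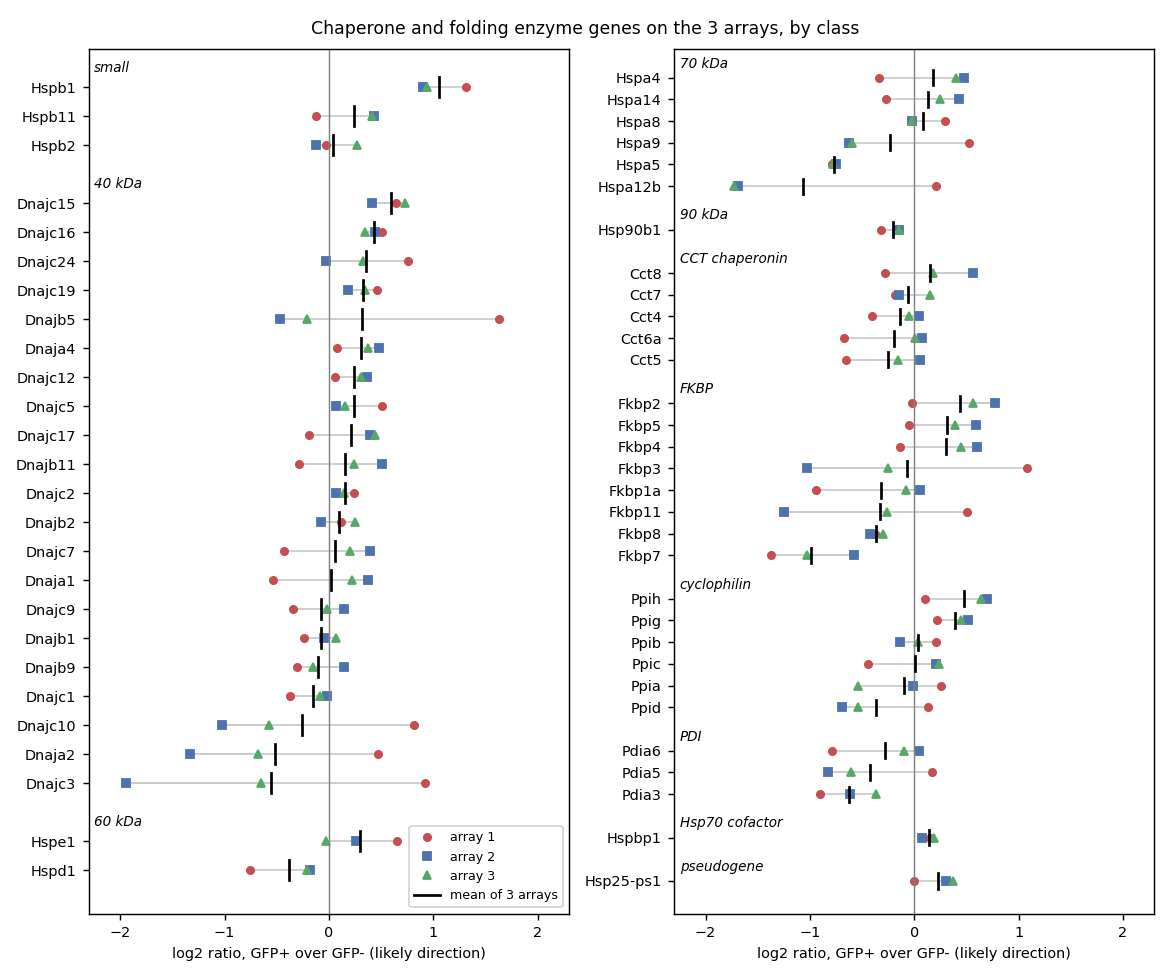
Each row is 1 of the 57 chaperone or folding enzyme genes, grouped by class, with its log2 ratio of GFP+ over GFP- on the horizontal axis (red circle array 1, blue square array 2, green triangle array 3) and a black bar at the mean of the 3 arrays. Hspb1 lies right of 0 on every array with a mean of 1.05, the 3 points of Hspa5 nearly coincide at a mean of -0.77, and Dnajc3, Dnajb5 and Hspa12b have array 1 far from arrays 2 and 3.

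Among the small heat shock proteins, Hspb1 (mouse Hsp25), which binds unfolded proteins and actin filaments, rose in the ureteric fraction. Its log2 ratios were 1.32, 0.90 and 0.94 on arrays 1, 2 and 3. All 3 were positive and array 1 was the highest. The mean was 1.05 ± 0.23 (SD, n = 3 arrays), or 2.08-fold, with a 95% interval of 0.64 to 1.46 and a limma adjusted p of 0.0366. Without array 3 the mean was 1.11 and the adjusted p 0.172, and with the ordinary statistic the adjusted p was 0.281. The other tested members of the class had smaller means. Hspb11, also known as a component of intraflagellar transport in cilia, had -0.12, 0.43 and 0.41 (mean 0.24 ± 0.31). Hspb2, a muscle-enriched small heat shock protein, had -0.03, -0.12 and 0.27 (0.04 ± 0.20). Neither passed, and both had array values on either side of 0. Hspb3 had a value on array 3 alone (0.40) and was not tested, and Hspb7, Hspb8 and Hspb9 had none. A probe assigned to Hsp25-ps1, a pseudogene related in sequence to Hspb1, had -0.0043, 0.31 and 0.37 (0.22 ± 0.20), so signal shared between the pair could not be separated. Hspb1 exceeded Hsp25-ps1 by 1.32, 0.60 and 0.57 on arrays 1, 2 and 3.

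The 250 bases before the Hspb1 start site (RefSeq, GRCm38.p6, chr5:135887669-135887918, plus strand) are shown because Hspb1 was the 1 member that passed; capitals mark 2-unit heat shock elements, GAANNTTC or TTCNNGAA, which read the same on both strands.
Hspb1: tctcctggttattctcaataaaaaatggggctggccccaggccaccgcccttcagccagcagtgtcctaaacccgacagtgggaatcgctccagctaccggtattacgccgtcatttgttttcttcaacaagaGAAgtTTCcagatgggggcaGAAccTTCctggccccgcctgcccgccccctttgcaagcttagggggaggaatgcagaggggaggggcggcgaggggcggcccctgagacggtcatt
Matches of this short pattern began 117 and 97 bases before the start. It was present in 12.8% of the 32851 windows of this length in the promoter table and in 10 (16.7%) of the 60 windows of members. Median GC content was 63.6% in the windows of members and 52.4% in all windows. The matches belonged to 10 of the 47 members found there, namely Cct5, Dnaja1, Dnaja4, Dnajc10, Fkbp4, Fkbp7, Hspb1, Hspd1, Hspe1 and Ppih. Their mean log2 ratios ran from -0.99 for Fkbp7 to 1.05 for Hspb1, so genes with this pattern lay on both sides of 0.

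The 70 kDa class spread widely around a median of -0.08 over 6 tested genes of 13, with 3 positive and 3 negative means and 0 past the adjusted threshold (2 lower at an unadjusted p below 0.05). Hspa5 (BiP), the 70 kDa chaperone of the ER, had the most repeatable value of the class. Its log2 ratios were -0.79, -0.75 and -0.78. The arrays almost coincided and none approached 0. The mean was -0.77 ± 0.02, or 1.71-fold lower in GFP+ cells, with a 95% interval of -1.14 to -0.41. Its limma adjusted p of 0.0637 missed the threshold, and after median centring of the arrays the adjusted p was 0.045. It was 0.00363 without array 1, 0.228 without array 2, 0.823 without array 3 and 0.118 with the ordinary statistic. A second Hspa5 probe had a value on array 3 alone, 0.58, opposite in sign to the first. Averaging it in, an alternative chosen after it was seen, moved the gene's mean to -0.55 with an adjusted p of 0.282.

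Hspa8, the constitutive cytosolic form, had 0.29, -0.02 and -0.02 (0.08 ± 0.18), close to equal in the fractions. On each array Hspa8 exceeded Hspa5, by 1.09, 0.72 and 0.76. Hspa4, a nucleotide exchange factor of the 70 kDa family, had -0.34, 0.47 and 0.40 (0.17 ± 0.45), and Hspa14, which acts at the ribosome, -0.27, 0.43 and 0.24 (0.14 ± 0.36). Both were negative on array 1 and positive on arrays 2 and 3. Hspa9 (mortalin), which pulls proteins into mitochondria and folds them there, went the other way, with 0.52, -0.63 and -0.60 (-0.24 ± 0.65). Hspa12b, a distant 70 kDa relative known from endothelial cells, had the lowest mean of all members, with 0.21, -1.69 and -1.73 (-1.07 ± 1.11, limma adjusted p = 0.293). Arrays 2 and 3 were among the most negative values of any member while array 1 was slightly positive, and without array 1 the mean was -1.71 (adjusted p = 0.000313). Hspa1a, a stress-inducible cytosolic form, had a value on array 3 alone, -0.70, and was not tested. Hspbp1, which releases nucleotide from 70 kDa chaperones, had 0.15, 0.07 and 0.19 (0.14 ± 0.06), positive on every array and small.

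Of the 90 kDa class, Hsp90b1 (Grp94), the ER form, was the only gene with an array symbol under the rule, and its ratios were -0.32, -0.15 and -0.14 (-0.20 ± 0.10, limma adjusted p = 0.596). All 3 were negative and small. Hspa5 lay below Hsp90b1 on each array, by 0.47, 0.60 and 0.64 on the log2 scale.

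Hspa5 and Hsp90b1 are textbook targets of the unfolded protein response, and the ER stress response element, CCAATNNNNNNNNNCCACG, was found in the 250 bases before the start of 4 of the 47 members with a promoter in the table, searched on both strands. It was present in 0.113% of all 32851 windows and in 4 (6.67%) of the 60 windows of members. The matches run 5′ to 3′ on the strand that carries the element, with its fixed letters in capitals.
Hspa5: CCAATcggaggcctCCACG
Hsp90b1, distal: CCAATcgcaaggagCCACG
Hsp90b1, proximal: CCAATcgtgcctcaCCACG
Pdia6: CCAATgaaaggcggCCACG
Dnajc3: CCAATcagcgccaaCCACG
They lie at chr2:34772025-34772043 for Hspa5, chr10:86705638-86705656 and chr10:86705533-86705551 for Hsp90b1, chr12:17266491-17266509 for Pdia6 and chr14:118937827-118937845 for Dnajc3 (GRCm38.p6). The proximal Hsp90b1 match is on the strand opposite to the gene and the other matches are on the gene's strand. All 4 genes had a negative mean log2 ratio, -0.77, -0.20, -0.28 and -0.56 in that order, and none passed. A negative mean was found in 45.1% of all tested genes and in 11 of the 16 tested ER members. Hspa5 and Hsp90b1 were negative on every array, whereas Pdia6 was positive on array 2 (0.04) and Dnajc3 on array 1 (0.92). The Hspa5 window (chr2:34771840-34772089, plus strand) is given whole because Hspa5 varied least of the members, with the element in capitals.
Hspa5 window: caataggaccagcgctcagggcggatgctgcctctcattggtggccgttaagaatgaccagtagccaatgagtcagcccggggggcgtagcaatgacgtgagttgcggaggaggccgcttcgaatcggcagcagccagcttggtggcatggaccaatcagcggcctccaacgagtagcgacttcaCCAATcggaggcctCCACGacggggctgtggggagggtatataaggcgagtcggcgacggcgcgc

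The mitochondrial chaperonin is a ring of Hspd1 (the 60 kDa subunit) closed by a lid of Hspe1, and the genes are neighbours that are read in opposite directions from a shared region. Hspd1 had -0.76, -0.19 and -0.21 (-0.38 ± 0.32, limma adjusted p = 0.419), negative on every array. Hspe1 had 0.66, 0.26 and -0.03 (0.30 ± 0.34, adjusted p = 0.534). Hspe1 exceeded Hspd1 on each array, by 1.41, 0.44 and 0.19, a mean difference of 0.68 ± 0.65 that was about as large as its spread. Between their starts lies a run of overlapping 3-unit heat shock elements (chr1:55088059-55088076, GRCm38.p6), shown on the strand of Hspe1 with the units in capitals because both genes share it.
Hspd1 and Hspe1: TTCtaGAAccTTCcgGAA
A 3-unit element, GAANNTTCNNGAA or TTCNNGAANNTTC on either strand, was in 0.466% of all windows and in 2 (3.33%) of the 60 windows of members. Hspd1 and Hspe1 were the 2 members of the 47 with a match. Each such element also holds matches of the 2-unit pattern.

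CCT is the cytosolic ring chaperonin that folds actin and tubulin, and its subunits are needed in equal numbers. Of 8 such genes 5 were tested, and 0 passed, adjusted or at an unadjusted p below 0.05. Cct8 had -0.28, 0.57 and 0.17 (0.15 ± 0.42) and Cct7 -0.18, -0.15 and 0.15 (-0.06 ± 0.18). Cct4 had -0.40, 0.04 and -0.05 (-0.14 ± 0.23), Cct6a -0.67, 0.07 and 0.01 (-0.20 ± 0.41) and Cct5 -0.65, 0.05 and -0.15 (-0.25 ± 0.36). All 5 subunits were at their lowest on array 1, where the median was -0.40, against 0.05 and 0.01 on arrays 2 and 3. Cct2, Cct3 and Cct6b had no value.

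J-domain proteins formed the largest class, with 21 tested genes of 42. Their median was 0.15, and 14 means were positive (54.9% of all tested genes) and 7 negative (45.1%). None passed (2 higher and 0 lower at an unadjusted p below 0.05, against 8.45% and 6.41% of all tested genes). Of the 21, 7 were positive on all 3 arrays (20.7% of all tested genes) and 1, Dnajc1, was negative on all 3 (15.3%). The highest mean was that of Dnajc15, a J-protein of the mitochondrial inner membrane, with 0.64, 0.41 and 0.73 (0.59 ± 0.16, or 1.51-fold, limma adjusted p = 0.167). Dnajc16 had 0.51, 0.44 and 0.35 (0.43 ± 0.08, adjusted p = 0.272). Dnajc19, which works at the mitochondrial import motor, had 0.46, 0.19 and 0.35 (0.33 ± 0.14). These 3 genes stayed above 0 on each array, at sizes below 2-fold.

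The other J-proteins positive on every array were Dnaja4 (0.31 ± 0.21), Dnajc12 (0.24 ± 0.16), Dnajc5 (0.24 ± 0.23), the cysteine string protein of vesicles, and Dnajc2 (0.15 ± 0.08), which acts at the ribosome. Dnajb1, the heat-inducible partner of cytosolic 70 kDa chaperones, had -0.24, -0.04 and 0.07 (-0.07 ± 0.16), near equality. Dnaja1, another cytosolic partner, had -0.54, 0.38 and 0.22 (0.02 ± 0.49). Dnajc24 (0.35 ± 0.40), Dnajc17 (0.21 ± 0.35), Dnajb2 (0.10 ± 0.16), Dnajc7 (0.05 ± 0.43) and Dnajc9 (-0.07 ± 0.25) had values on both sides of 0.

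In the ER, Dnajb9 had -0.31, 0.14 and -0.16 (-0.11 ± 0.23), Dnajb11 -0.29, 0.51 and 0.24 (0.15 ± 0.41), and Dnajc1 -0.37, -0.02 and -0.09 (-0.16 ± 0.19); each is a partner of Hspa5. Dnajc10, a J-protein that also reduces disulfides, had 0.82, -1.02 and -0.57 (-0.26 ± 0.96). Dnajc3, which restrains the ER stress kinase PERK and helps Hspa5, had 0.92, -1.94 and -0.65 (-0.56 ± 1.44), the widest spread of any member. Dnaja2 of the cytosol had 0.47, -1.33 and -0.68 (-0.51 ± 0.91), and Dnajb5 1.63, -0.47 and -0.21 (0.32 ± 1.14). In these 4 genes array 1 was positive and arrays 2 and 3 negative. Without array 1, Dnajb5 had a mean of -0.34 and passed as lower (limma adjusted p = 0.046), so its sign depended on that array. Dnajc21 had a value on array 3 alone (-0.51), and 20 J-protein genes had none.

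The FKBP class ran from Fkbp2 to Fkbp7 with a median of -0.20 over 8 tested genes of 11, and 0 passed (1 lower at an unadjusted p below 0.05). Without array 2 the median was 0.14. Fkbp7, an ER prolyl isomerase that binds calcium, had -1.37, -0.58 and -1.03. All 3 were negative and array 2 was the least so. The mean was -0.99 ± 0.40, or 1.99-fold lower, with a 95% interval of -1.48 to -0.50 (limma adjusted p = 0.0709). It passed as lower after median centring (adjusted p = 0.0489) and without array 1 or array 2 (0.00797 and 0.00491), but not without array 3 (0.346) or with the ordinary statistic (0.412). Fkbp8, a mitochondrial outer membrane protein, had -0.37, -0.42 and -0.30 (-0.37 ± 0.06, adjusted p = 0.342), small and alike on all arrays.

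Fkbp2, an ER form, had the highest FKBP mean, with -0.02, 0.77 and 0.57 (0.44 ± 0.41). Fkbp4 and Fkbp5, partners of 90 kDa chaperones in steroid receptor complexes, had -0.14, 0.60 and 0.45 (0.30 ± 0.39) and -0.06, 0.59 and 0.39 (0.31 ± 0.33). These 3 genes had array 1 just below 0 and arrays 2 and 3 above it. Fkbp1a, the abundant cytosolic form that binds rapamycin, had -0.94, 0.05 and -0.08 (-0.32 ± 0.54). Fkbp3 of the nucleus had 1.08, -1.03 and -0.26 (-0.07 ± 1.07), and Fkbp11 of the ER 0.51, -1.24 and -0.26 (-0.33 ± 0.88). In Fkbp3 and Fkbp11 array 1 opposed the other arrays. Fkbp9 was listed on arrays 2 and 3 only, at -0.56 and -0.39, and was not tested.

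Of the cyclophilins, 6 of 8 genes were tested, 0 passed (2 higher at an unadjusted p below 0.05), and the median was 0.02. Ppih and Ppig are nuclear members tied to splicing. Ppih had 0.11, 0.69 and 0.64 (0.48 ± 0.32, limma adjusted p = 0.305) and Ppig 0.22, 0.51 and 0.44 (0.39 ± 0.15, adjusted p = 0.333). Both were positive on every array. Ppia, the abundant cytosolic cyclophilin, had 0.25, -0.02 and -0.54 (-0.10 ± 0.40). Near 0 lay the secretory pathway members Ppib (0.21, -0.14 and 0.04, mean 0.04 ± 0.17) and Ppic (-0.44, 0.21 and 0.24, mean 0.0013 ± 0.39). Ppid, a partner of 90 kDa chaperones, had 0.13, -0.69 and -0.54 (-0.37 ± 0.44). Ppie, a nuclear cyclophilin of the spliceosome, had -1.94 and -0.76 on arrays 2 and 3 and no value on array 1, and was not tested.

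All 3 tested PDI genes of the 5 in the Pdia series had a negative mean, where 45.1% of all tested genes did. PDI genes under other symbols lie outside the rule and are not counted here. Of the 3, 0 passed (1 lower at an unadjusted p below 0.05). Pdia3 (ERp57), which works with calnexin and calreticulin on glycoproteins, had -0.91, -0.61 and -0.36, negative on every array (-0.63 ± 0.27, or 1.55-fold lower, limma adjusted p = 0.181). Pdia5 had 0.17, -0.83 and -0.60 (-0.42 ± 0.52), and Pdia6, a regulator of the ER stress sensors, -0.79, 0.04 and -0.10 (-0.28 ± 0.44). The PDI median was -0.42, the lowest of the classes, with medians of -0.79, -0.61 and -0.36 on arrays 1, 2 and 3.

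Set side by side, the medians of the small, 40, 60, 70 and 90 kDa classes were 0.24, 0.15, -0.04, -0.08 and -0.20, against 0.03 for all tested genes. Classes were assigned by gene symbol and not by the mass of each protein, so their order is not a series of masses. The 60 kDa class counts the lid Hspe1, not itself a 60 kDa protein, with Hspd1, and Hspd1 alone had a mean of -0.38. The small class held 3 genes, the 60 kDa class 2 and the 90 kDa class 1, so these medians rest on single genes or pairs, and the small class median is the mean of Hspb11 (0.42 without array 1, 0.14 without array 2 and 0.15 without array 3). The 40 kDa median lay above that of all tested genes on every array (0.12, 0.14 and 0.20, against -0.04, 0.09 and 0.08), as did the medians of the small class and the cyclophilins. Those of the 60 kDa, 90 kDa, CCT, FKBP and PDI classes lay below it on every array. Within the 40 kDa class, the Dnaja and Dnajc medians lay above that of all tested genes on every array. The median of the 5 tested Dnajb genes lay below it on every array (-0.24, -0.04 and 0.07). The medians of the means were 0.02 for the 3 tested Dnaja genes, 0.10 for Dnajb and 0.21 for the 13 tested Dnajc genes. The 70 kDa median was -0.03 on array 1 and -0.33 and -0.31 on arrays 2 and 3, and it was -0.32 without array 1. The CCT median of -0.14 became 0.0031 without array 1. These medians are descriptions, and differences between classes were not tested.

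**Figure D2:**
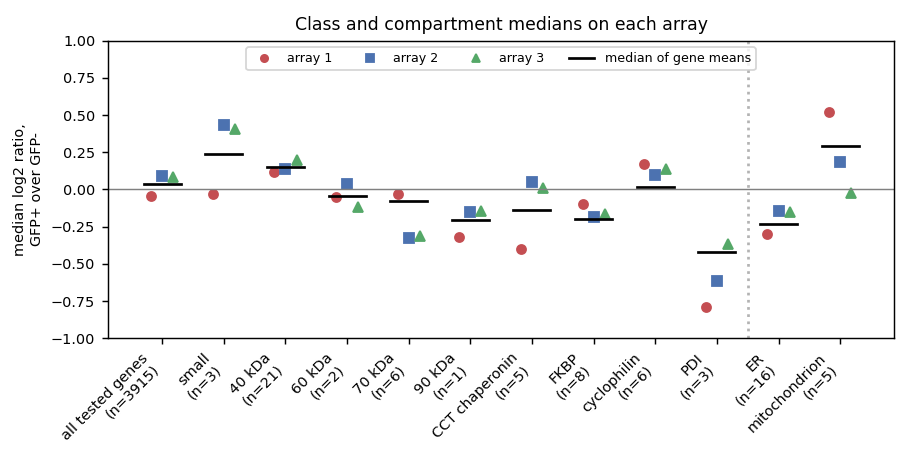
Median log2 ratio of GFP+ over GFP- (vertical axis) of each chaperone class, and right of the dotted line of each compartment, on array 1 (red circles), array 2 (blue squares) and array 3 (green triangles), with a black bar at the median of the genes' means and the number of tested genes under each name. The PDI medians lie between -0.79 and -0.36, and the CCT medians are at -0.40 on array 1 and near 0 on the other arrays.

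Grouped by compartment, most ER members had a negative mean. Of 16 tested ER genes 11 did, where 45.1% of all tested genes did, with a median of -0.23 (-0.099 without array 1), and 5 were negative on all 3 arrays (Dnajc1, Hsp90b1, Pdia3, Hspa5 and Fkbp7), where 15.3% of all tested genes were. Dnajc16 alone was positive on all 3, where 20.7% were. Of the 5 tested genes of the mitochondrial matrix and inner membrane, Dnajc15, Dnajc19 and Hspe1 had a positive mean, a share near the 54.9% of all tested genes, and Hspa9 and Hspd1 a negative one. Their median was 0.30, and it was 0.12 without array 1 and 0.064 with array weights. Fkbp8 of the outer membrane was counted with the cytosol; with it, 3 of 6 means were positive and the mitochondrial median was 0.03, an alternative added after the values were seen. The mitochondrial median exceeded the ER median on each array, by 0.82, 0.33 and 0.13 (with Fkbp8 by 0.79, 0.14 and 0.03). The 36 members of the cytosol, nucleus or other places had a median of 0.12. In the ER 0 genes passed in limma (1 higher and 3 lower at an unadjusted p below 0.05), and among the 5 mitochondrial members 0 passed (1 higher, unadjusted). The 13 tested macrophage, erythroid and stromal markers were also negative, with means from -2.84 to -0.33, and their part in the ER values was not tested.

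**Figure D3:**
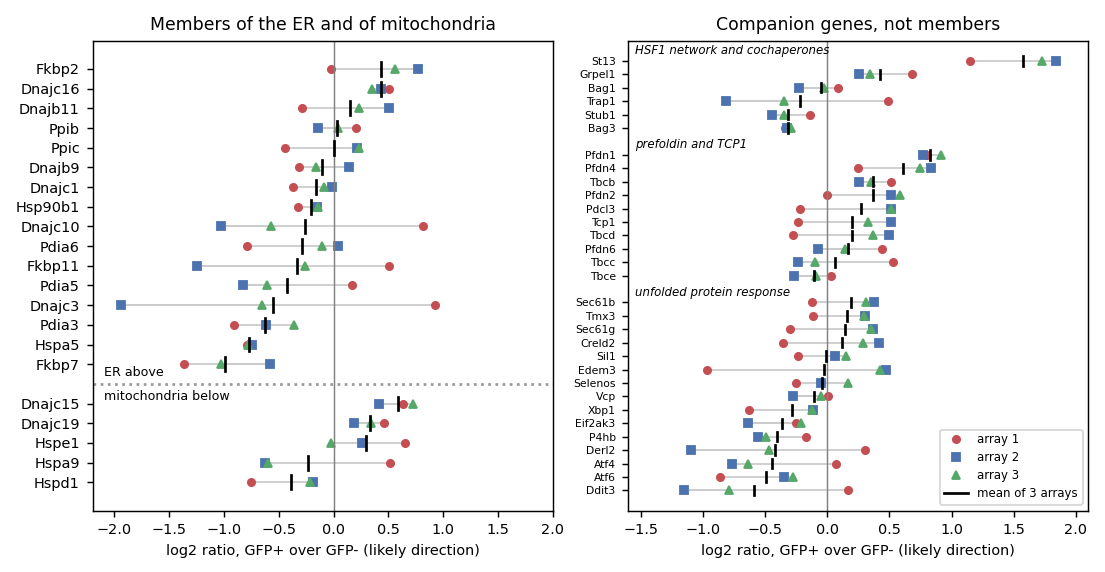
Log2 ratios of GFP+ over GFP- (horizontal axes) on array 1 (red circles), array 2 (blue squares) and array 3 (green triangles), with black bars at the means: left, the 16 ER members above the dotted line and the 5 members of the mitochondrial matrix and inner membrane below it; right, tested genes of 3 companion lists. Hspa5 and Fkbp7 close the ER list at -0.77 and -0.99, and St13 lies furthest right among the companion genes at 1.57.

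Array 1 and arrays 2 and 3 often gave opposite signs, for these genes as for all tested genes. Among the 57, 11 were positive on all 3 arrays (19.3%, against 20.7% of all tested genes) and 7 negative on all 3 (12.3%, against 15.3%). In 14, array 1 was negative and arrays 2 and 3 positive (24.6%, against 31.0% of all tested genes). In 12, array 1 was positive and the others negative (21.1%, against 19.0%), and in 13 arrays 2 and 3 differed in sign (22.8%, against 14.0%). The correlation across the 57 genes was 0.852 between arrays 2 and 3 and -0.062 between array 1 and the mean of the others, against 0.883 and 0.172 across all tested genes. An SD above 0.8 was found in 7 of the 57 members (12.3%) and in 6.56% of all tested genes. The 7 were Dnajc3, Dnajb5, Hspa12b, Fkbp3, Dnajc10, Dnaja2 and Fkbp11, and in each array 1 was positive and arrays 2 and 3 negative. Without array 1, 17 members passed as higher (27.6% of all tested genes did) and 14 as lower (18.9%).

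**Figure D4:**
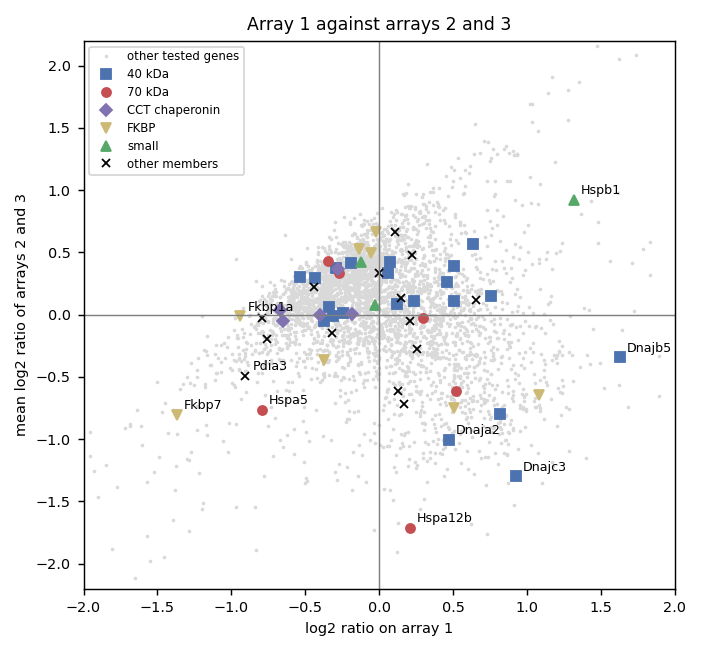
Each point is a tested gene, with its log2 ratio on array 1 on the horizontal axis and the mean of arrays 2 and 3 on the vertical axis; grey points are other genes, of which 32 lie outside the plotted range, and coloured symbols are chaperone classes. Hspb1 stands in the upper right quadrant, Hspa5, Fkbp7 and Pdia3 in the lower left, and Dnajc3, Dnaja2, Dnajb5 and Hspa12b in the lower right, where array 1 is positive and the others negative.

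Genes that work with the chaperones were taken from 3 further lists. In the list of heat shock factor network genes and cochaperones, 6 of 27 were tested and 1 passed, St13 (Hip), which steadies 70 kDa chaperones on their clients. Its ratios were 1.14, 1.84 and 1.73, above every chaperone member on arrays 2 and 3 and, on array 1, below Hspb1 and Dnajb5 alone. The mean was 1.57 ± 0.37, or 2.97-fold higher in GFP+ cells (limma adjusted p = 0.0161). Grpel1, the exchange factor of Hspa9, had 0.43 ± 0.23, Bag3, an exchange factor induced by stress, -0.32 ± 0.02, and the ubiquitin ligase Stub1 -0.31 ± 0.16; none of these passed. The median over the 6 was -0.14.

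Prefoldin delivers clients to CCT, and 10 of 14 genes of the list of prefoldins, Tcp1, phosducin-like proteins and tubulin cofactors were tested. Of these, 9 had a positive mean (54.9% of all tested genes), the median was 0.23, and 0 passed (2 higher at an unadjusted p below 0.05). Pfdn1 had 0.80, 0.77 and 0.92 (0.83 ± 0.08, limma adjusted p = 0.0557), the highest of the list and alike on all arrays. Pfdn4 had 0.61 ± 0.32, the tubulin cofactor Tbcb 0.37 ± 0.13 and Pfdn2 0.37 ± 0.32. Tcp1, the CCT subunit whose symbol lies outside the rule, had -0.24, 0.51 and 0.33, again lowest on array 1.

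Of 36 genes of the unfolded protein response and ER quality control, 15 were tested and 11 had a negative mean (45.1% of all tested genes). Their median was -0.11, and 0 passed (2 lower at an unadjusted p below 0.05). The members of largest size were the stress factor Ddit3 (-0.59 ± 0.68), the sensor Atf6 (-0.50 ± 0.32), the transcription factor Atf4 (-0.45 ± 0.45) and Derl2 of the degradation channel (-0.42 ± 0.70). Ddit3, Atf4 and Derl2 were positive on array 1 and negative on the others. Immediate early genes, which respond to handling of cells, had a median of -0.58 over 9 tested of 12, with 0 past the adjusted threshold in limma and 4 lower at an unadjusted p below 0.05, and their part in the chaperone values was not tested.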

How the data were processed

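Deposited values are log2 ratios per feature and array. Per the labels, images were read with Imagene 5.5, a Lowess curve over 20% of the data adjusted the control channel, and control values under 10 became 10; the filtering rule is not stated there. Base 2 was inferred from the values, since 2 raised to them gave whole thousandths (within 0.01 of one) for 99.97%. Of 22702 features, 883 controls and blanks were left out, and 4399 had values on all 3 arrays. Platform symbols, updated through gene identifiers to RefSeq (GRCm38.p6), gave 3915 genes; probes with values on every array were averaged. Each gene's mean was compared with 0 by limma 3.58.1 (R 4.3.3, lmFit and eBayes, two-sided, Benjamini-Hochberg, adjusted p below 0.05). The same steps were run on simulated independent arrays. Here arrays 2 and 3 resembled each other, so that run cannot show how the calls hold for these data. Whether arrays came from separate pools is not labelled, so p-values may measure technical spread only, and 3 arrays limit precision. The dyes are not stated and no dye swap is labelled, so dye effects of single genes cannot be told apart from cell differences. Raw signals were not analysed here. Members, classes, compartments and lists were chosen with earlier results of these data known. Any member may be named; of companion lists, genes that passed and the 4 of largest mean, plus Tcp1, a CCT subunit. Alternatives left out each array or changed centring, scaling, quantile normalization, array weights, the statistic, the value filter or probe averaging, or averaged arrays 2 and 3.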

Additional observations from a re-analysis of the deposited data

How the results depend on the processing

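Leaving out 1 array at a time gave 0 to 17 members higher and 0 to 14 lower, and 23 to 1080 of all genes higher and 51 to 738 lower; the high counts came without array 1, Hspb1 was lost without array 3, and the lower member without array 2 was Fkbp7. Array weights, 0.15 on array 1 and estimated gene by gene since the default estimate did not converge, gave 19 members higher and 14 lower, with 1309 and 861 of all genes. Centring, scaling and quantile normalization each gave 2 lower members, Hspa5 and Fkbp7, and quantile normalization 84 lower genes in all. Averaging arrays 2 and 3 gave 29 higher genes in all. The ordinary statistic passed 0 members, and 1 higher and 0 lower gene in all. Without 1 array in turn, medians ran from 0.14 to 0.42 for the small class, 0.10 to 0.14 for the 40 kDa class, -0.085 to -0.0075 for the 60 kDa class, -0.32 to 0.0048 for the 70 kDa class, -0.23 to 0.0031 for CCT, -0.19 to 0.14 for FKBPs, 0.0096 to 0.086 for cyclophilins, -0.49 to -0.37 for PDI, -0.22 to -0.099 for the ER and 0.12 to 0.32 for mitochondrial genes. Centring moved the 40 kDa median to 0.11 and the cyclophilin median to -0.025, scaling moved cyclophilins to -0.018 and FKBPs to -0.27, and averaging arrays 2 and 3 moved the 40 kDa class to 0.10 and FKBPs to 0.036. Including Fkbp9 through genes on at least 2 arrays moved FKBPs to -0.32. Array weights moved the 70 kDa class to -0.30, cyclophilins to 0.10, the ER to -0.12, the small class to 0.40, CCT to 0.007 and mitochondrial genes to 0.064, and counting Fkbp8 as mitochondrial moved the last to 0.03. Dnajb5 ran from -0.34 without array 1 to 0.71 without array 2. Up to 10 of the 57 means changed sign under a setting, and Dnajb5 without array 1 was the 1 such case that passed. The cause of these changes was not tested. Averaging partial probes changed no call of a member, and Hspa5 was the only tested member with such a probe. Testing probes singly and applying the rule to updated symbols also changed no call, but these settings could hardly do so. Each tested member had a single probe with values on all arrays, and the updated symbols gave the same 57 genes. Each array compared GFP+ with GFP- cells directly, so the test of the mean ratio against 0 was already paired within arrays. No further pairing between arrays was possible because the arrays form 1 group. Signal over background was not analysed here, so precision rests on 3 arrays.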
